A study of Mus musculus with 10 samples.

Results

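The genes described here encode matrix and matricellular proteins made by macrophages. They are Prg4, Fn1, Thbs1, Ecm1, Vcan, Tgm2, Spp1 and Ccdc80, which are 8 of the 22165 gene identifiers in the deposited table, and each symbol matched 1 identifier. The set was chosen by function, and the levels of Spp1 and Ccdc80 in these libraries prompted it. Values of Spp1 and Ccdc80 are therefore given as a description, with no test, and counts of genes past the test refer to the other 6. All 8 had enough reads to be among the 11614 genes tested.

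Peritoneal cavity macrophages came from C57BL/6 mice in 4 groups, sorted by antibodies to CD64, ICAM-2 and CD115. All mice carried floxed alleles of the targeted gene, according to the series' design text, and those without Cre are labelled WT. The mice labelled KO also carried LysM-Cre, a Cre recombinase under control of the Lyz2 locus that acts in myeloid cells. Deletion of that gene and presence of Cre therefore cannot be told apart in any comparison of genotypes. Basal mice were injected intraperitoneally with saline, and IL-4 mice with IL-4 complexed to an antibody against it, and the cavity was lavaged with 5 ml of PBS 36 hours later. Age and sex are not given in the sources used here. Nothing in the labels ties a replicate to its own animal. Each p therefore sets a difference against the spread between these libraries, which may not be the spread between animals.

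The extracellular matrix is a network of secreted glycoproteins, proteoglycans and collagens, and matricellular proteins are secreted into it mainly to signal to cells and not to build structure. Cells bind both through integrins, CD44 and other receptors, and transglutaminases link matrix proteins to each other. IL-4 is the cytokine that drives alternative activation of macrophages, a state associated with tissue repair and matrix turnover, and it signals through the transcription factor STAT6.

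Polyadenylated RNA was counted in 10 libraries, with 2 per basal group, 3 per IL-4 group and 8762403 to 15024073 counted reads each. Levels are given as CPM, read counts divided by the TMM-scaled library size. Gene positions are those of GENCODE M21 on mm10. Fn1, Tgm2, Thbs1, Vcan and Prg4 overlap an annotated gene on the opposite strand, whose reads cannot be told apart here because the strand setting of the counting is not given. Lyz2, the locus that carries the Cre, stood at 2664 and 9675 CPM in KO basal libraries against 21903 and 23600 CPM in WT basal libraries (log2 -1.88 ± 0.42, adjusted p = 0.0249), and differed after IL-4 by log2 -0.89 ± 0.34 (adjusted p = 0.249). The KO basal libraries also stood apart in B cell markers, which summed to 1214 and 1517 CPM against 137 to 463 CPM in the other 8 libraries, and in mast cell markers, which summed to 158 and 263 CPM against 1.52 to 28.9 CPM. T and NK cell markers summed to 96.8 and 98.2 CPM there and to 21.2 to 38.2 CPM elsewhere. Most of the sum in KO basal libraries was Cd2 alone (82.4 to 84.5 CPM). Between basal genotypes 1 of the 7 T and NK cell markers tested was higher in KO, 0 were lower and 6 did not pass. Of all genes 4.14% passed there. In such bulk samples fewer cells of a type and less RNA per cell cannot be told apart.

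RefSeq promoter windows on GRCm38.p6, from 250 bases before to 50 bases after a gene's start, matched Spp1, Ecm1 and Vcan. Fn1, Ccdc80, Tgm2, Thbs1 and Prg4 are named only. The windows of Spp1, Ecm1 and Vcan are shown because no other member had one. These 3 genes moved in different ways: Spp1 was low in 1 group, Ecm1 fell after IL-4 in KO and Vcan rose after IL-4 in both genotypes. Capitals mark matches, on either strand, to any of 5 motifs: a STAT6 site (TTC and GAA with any 4 bases between), a general STAT site TTCNNNGAA, an AP-1 site TGANTCA, a PU.1 site GAGGAAGT and a RUNX site AACCACA. The last pair of motifs was chosen after the Spp1 window had been read.
Spp1, chr5:104434861-104435160, plus strand: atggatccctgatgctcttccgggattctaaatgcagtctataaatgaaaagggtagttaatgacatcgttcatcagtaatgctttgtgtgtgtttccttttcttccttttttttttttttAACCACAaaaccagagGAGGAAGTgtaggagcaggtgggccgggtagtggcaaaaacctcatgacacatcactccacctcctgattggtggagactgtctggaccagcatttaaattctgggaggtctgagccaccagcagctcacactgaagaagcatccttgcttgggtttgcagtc
Ecm1, chr3:95739520-95739819, minus strand: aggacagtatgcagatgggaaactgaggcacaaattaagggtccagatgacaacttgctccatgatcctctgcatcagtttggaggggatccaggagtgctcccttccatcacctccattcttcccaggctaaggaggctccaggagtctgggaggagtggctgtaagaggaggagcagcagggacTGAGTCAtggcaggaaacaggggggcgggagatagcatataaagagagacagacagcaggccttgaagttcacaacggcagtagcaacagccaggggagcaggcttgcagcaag
Vcan, chr13:89742463-89742762, minus strand: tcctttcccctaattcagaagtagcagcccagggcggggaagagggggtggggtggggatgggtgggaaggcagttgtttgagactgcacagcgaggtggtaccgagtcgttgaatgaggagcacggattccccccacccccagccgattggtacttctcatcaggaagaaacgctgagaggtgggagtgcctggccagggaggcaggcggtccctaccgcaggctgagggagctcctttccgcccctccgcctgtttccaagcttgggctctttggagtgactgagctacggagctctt
The Spp1 window held a RUNX match beginning at base -129 and a PU.1 match beginning at base -113 from the start, which do not overlap. The Ecm1 window held an AP-1 match beginning at base -64, and the Vcan window held none of the 5. Neither STAT motif was found in these windows. Among 32851 windows of this length in the table, 6.95% held the STAT6 motif, 8.30% the general STAT motif, 7.81% the AP-1 motif, 3.20% the PU.1 motif and 5.27% the RUNX motif. A second Spp1 window, beginning at base 104435942, held no match.

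Per kb of merged exons, which allows levels of different genes to be compared, the 8 genes spanned more than 3 orders of magnitude. Prg4, which encodes lubricin, a mucin-like glycoprotein that lubricates joint and serosal surfaces, was highest in all 4 groups, with a mean level of 870 ± 209 CPM per kb in WT basal (SD, n = 2) and 1758 ± 1042 CPM per kb in KO IL-4 libraries (SD, n = 3). By mean level per kb it ranked between 17 and 55 among 11583 genes. Fn1, the gene of fibronectin, an adhesive glycoprotein that integrins bind, came next in each group, with means of 386 to 544 CPM per kb and ranks of 72 to 122. Thbs1 and Ecm1 followed, and their ranges overlapped in both basal groups but not after IL-4, when Thbs1 was the higher in each genotype. The remaining 4 genes lay far lower, at 25.7 ± 19.5 CPM per kb or less on average.

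**Figure D1:**
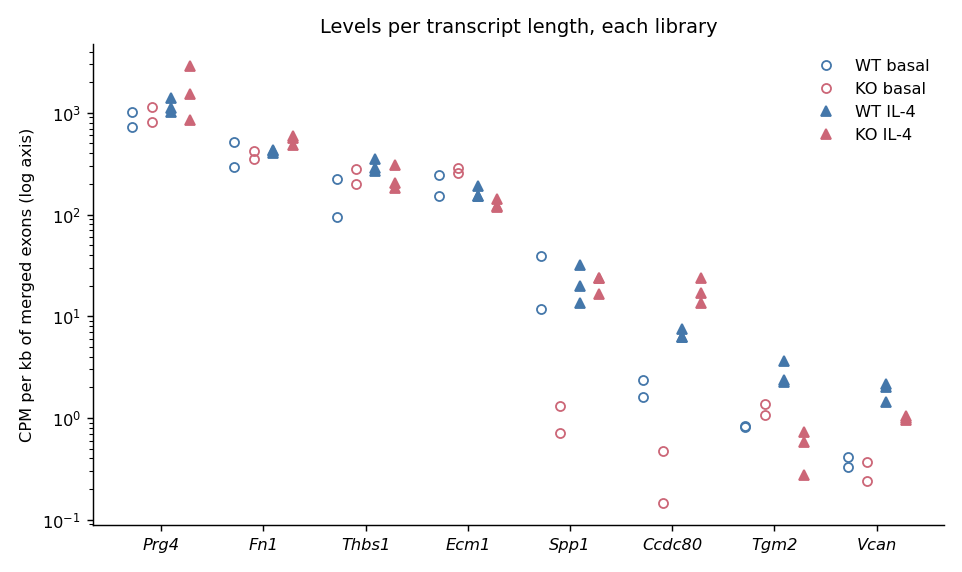
Level of each gene per kb of merged exons (log axis), with 1 point per library, circles for basal and triangles for IL-4, blue for WT and red for KO. Prg4, Fn1, Thbs1 and Ecm1 lie between about 95.3 and 2896 CPM per kb, and the other genes lie at 39.5 or less.

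The order of the low genes changed with the group. Spp1 (25.7), Ccdc80 (1.98), Tgm2 (0.828) and Vcan (0.375) followed each other in WT basal libraries, by mean CPM per kb, with no overlap between neighbours. In KO basal libraries Tgm2 (1.21) and Spp1 (1.01) overlapped, as did Ccdc80 (0.312) and Vcan (0.305). In KO IL-4 libraries the means were 21.3 for Spp1 and 17.9 for Ccdc80, again with overlapping ranges, and Tgm2 was lowest at 0.530. All 8 genes together took 0.691% to 1.96% of the counted reads of a library, nearly all of it from Prg4, Fn1, Thbs1 and Ecm1. WT basal replicate 2 was the lower of the pair of WT basal libraries for 7 of the 8 genes, Tgm2 being the exception.

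**Figure D2:**
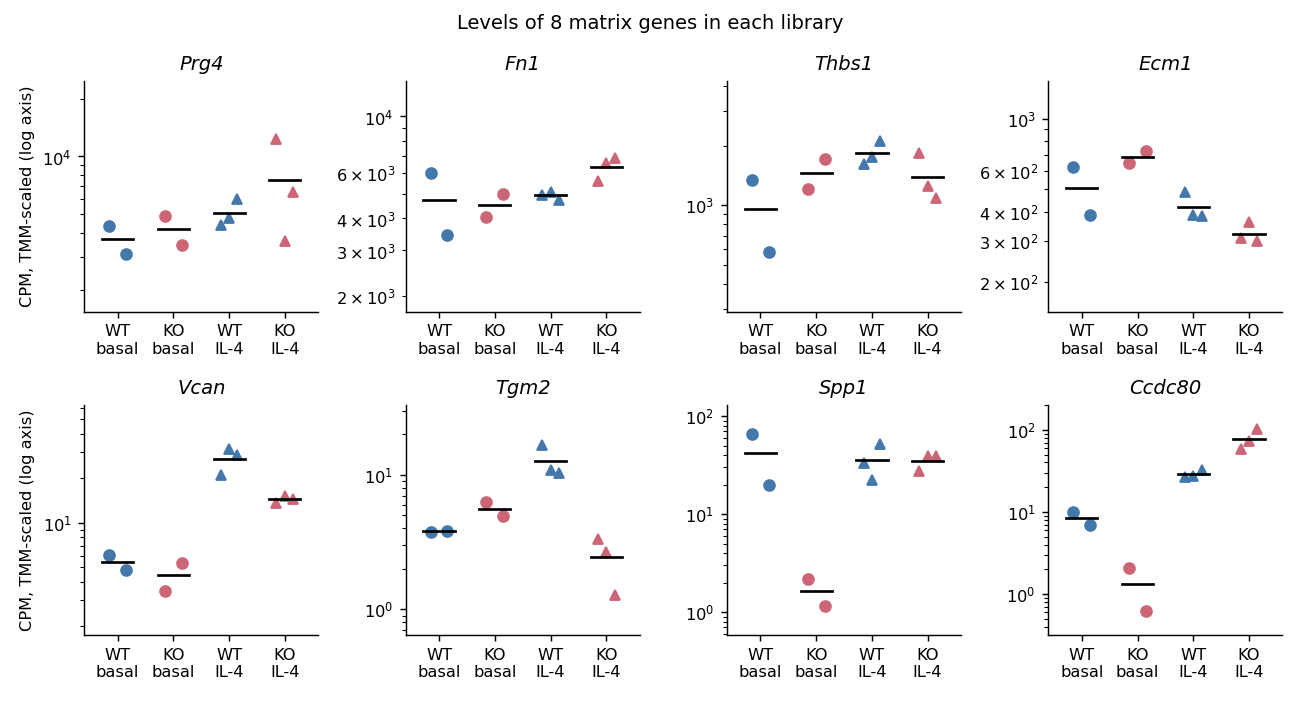
CPM of each gene in every library (log axes, scaled separately for each gene), with circles for basal, triangles for IL-4, blue for WT, red for KO and a bar at the group mean. Prg4, Fn1 and Thbs1 have no difference past the test with all libraries, Ecm1 is lowest in KO IL-4, Vcan rises with IL-4 in both genotypes, Tgm2 is highest in WT IL-4, and Spp1 and Ccdc80 are lowest in KO basal.

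With all libraries none of the abundant Prg4, Fn1, Thbs1 and Ecm1 passed between genotypes, which does not show their differences to be small. Prg4 (ENSMUSG00000006014, chr1:150449412-150466165, minus strand) stood at 4355 and 3090.3 CPM in WT basal, 4903 and 3446 CPM in KO basal, 4399, 4749.7 and 6013 CPM in WT IL-4, and 12395, 3634 and 6549 CPM in KO IL-4 libraries. The 3 KO IL-4 libraries spread over a 3-fold range that enclosed all WT IL-4 values. Its genotype difference was log2 0.17 ± 0.42 under basal conditions (adjusted p = 0.894) and 0.57 ± 0.34 after IL-4 (adjusted p = 0.477). The IL-4 difference was log2 0.44 ± 0.39 in WT (adjusted p = 0.566) and 0.85 ± 0.39 in KO (adjusted p = 0.220), and the latter passed without KO IL-4 replicate 2 (log2 1.18, adjusted p = 0.0297) and with no filter on low counts (adjusted p = 0.00631).

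Fn1 (ENSMUSG00000026193, chr1:71585520-71653200, minus strand) stood at 6011 and 3461 CPM in WT basal, 4064 and 4964 CPM in KO basal, 4931, 5079 and 4742 CPM in WT IL-4, and 5577, 6611 and 6875 CPM in KO IL-4 libraries. The KO IL-4 libraries all lay above the WT IL-4 libraries, while the basal groups overlapped. No Fn1 difference passed: between genotypes it was log2 -0.07 ± 0.24 under basal conditions (adjusted p = 0.925) and 0.37 ± 0.20 after IL-4 (adjusted p = 0.417). With IL-4 it was log2 0.05 ± 0.22 in WT (adjusted p = 0.924) and 0.49 ± 0.23 in KO (adjusted p = 0.207).

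Thbs1 (ENSMUSG00000040152, chr2:118111876-118127133, plus strand) encodes thrombospondin 1, a matricellular protein that binds CD36 and CD47 and can activate latent TGF-beta. It stood at 1349 and 579 CPM in WT basal, 1207 and 1707 CPM in KO basal, 1619, 1751 and 2129 CPM in WT IL-4, and 1851, 1250.4 and 1095 CPM in KO IL-4 libraries. The WT IL-4 libraries lay above both WT basal ones, and the KO groups overlapped. The IL-4 difference was log2 0.93 ± 0.33 in WT (adjusted p = 0.116) and -0.06 ± 0.32 in KO (adjusted p = 0.943). The interaction, that is the difference in KO minus that in WT, was -0.99 ± 0.45 (adjusted p = 0.317). The genotype difference was log2 0.60 ± 0.35 under basal conditions (adjusted p = 0.413) and -0.39 ± 0.29 after IL-4 (adjusted p = 0.565). Without WT basal replicate 1, which leaves only the low WT basal library, 3 of these values passed: the basal genotype difference (log2 1.34, adjusted p = 0.0443), IL-4 in WT (1.67, adjusted p = 0.0130) and the interaction (-1.74, adjusted p = 0.0299). The IL-4 difference in WT also passed with no filter on low counts (log2 0.91, adjusted p = 0.00554).

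Ecm1 (ENSMUSG00000028108, chr3:95734147-95739569, minus strand), the gene of extracellular matrix protein 1, a secreted glycoprotein that binds other matrix proteins, was 2.13-fold lower after IL-4 in KO. It stood at 622 and 385 CPM in WT basal, 647 and 725 CPM in KO basal, 484, 386 and 382 CPM in WT IL-4, and 307, 361 and 299 CPM in KO IL-4 libraries. The KO IL-4 libraries lay below all others, and the WT groups overlapped. By group mean Ecm1 was highest in KO basal (686 CPM, against 322 to 504 CPM in the other groups). The part of B cell and mast cell RNA, in which the KO basal libraries are rich, was not tested. IL-4 lowered Ecm1 in KO (log2 -1.09 ± 0.22, adjusted p = 0.00745), whereas the difference in WT was -0.27 ± 0.23 (adjusted p = 0.536). The interaction did not pass (log2 -0.82 ± 0.32, adjusted p = 0.224), so the IL-4 effects are not shown to differ between genotypes. Between genotypes Ecm1 differed by log2 0.45 ± 0.25 under basal conditions (adjusted p = 0.377) and -0.37 ± 0.20 after IL-4 (adjusted p = 0.424). The call in KO was lost without KO basal replicate 2 (adjusted p = 0.0798).

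Vcan (ENSMUSG00000021614, chr13:89655312-89742509, minus strand), the gene of versican, a large chondroitin sulfate proteoglycan that binds hyaluronan, rose with IL-4 in both genotypes. It stood at 6.04 and 4.80 CPM in WT basal, 3.46 and 5.37 CPM in KO basal, 20.9, 31.4 and 28.9 CPM in WT IL-4, and 13.7, 15.1 and 14.5 CPM in KO IL-4 libraries. All IL-4 libraries lay above all basal ones, and the KO IL-4 libraries lay below the WT IL-4 libraries. The rise was 5.00-fold in WT (log2 2.32 ± 0.32, adjusted p = 7.46e-04) and 3.25-fold in KO (log2 1.70 ± 0.32, adjusted p = 0.00430), and the interaction was log2 -0.62 ± 0.43 (adjusted p = 0.545). The genotype difference was log2 -0.91 ± 0.26 after IL-4 (adjusted p = 0.118) and -0.29 ± 0.35 under basal conditions (adjusted p = 0.739). The rise in KO was lost without KO basal replicate 1 (log2 1.43, adjusted p = 0.0798). These levels rest on 32 to 473 reads per library. The summed markers of monocytes, dendritic cells and small peritoneal macrophages moved with Vcan in WT. These 15 genes summed to 492 to 965 CPM in WT basal, 1891 to 2449 CPM in KO basal, 2886 to 3408 CPM in WT IL-4 and 2417 to 2492 CPM in KO IL-4 libraries, with none at 0. With IL-4 in WT 8 of the 14 tested were higher, 0 were lower and 6 did not pass, beside 6.06% of all genes that passed. Ccr2 stood at 66.9 to 154 CPM in WT basal and 768 to 792 CPM in WT IL-4 libraries, while Ly6c2 stayed at 0.894 CPM or less in all groups. The list also holds Clec10a and Mgl2, lectin genes that IL-4 induces, and its part in the Vcan values was not tested.

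Tgm2 (ENSMUSG00000037820, chr2:158116402-158146436, minus strand) encodes transglutaminase 2, which cross-links fibronectin and other proteins and is a known IL-4 target of macrophages. It stood at 3.78 and 3.85 CPM in WT basal, 6.27 and 4.92 CPM in KO basal, 16.6, 10.8 and 10.4 CPM in WT IL-4, and 3.35, 2.69 and 1.28 CPM in KO IL-4 libraries. The WT IL-4 libraries lay above every other library, and the KO IL-4 libraries lay below every other library. After IL-4 Tgm2 was 5.19-fold lower in KO (log2 -2.37 ± 0.39, adjusted p = 0.00793), whereas under basal conditions the difference was log2 0.55 ± 0.46 (adjusted p = 0.602). IL-4 raised Tgm2 in WT 3.30-fold (log2 1.72 ± 0.44, adjusted p = 0.0289), and the difference in KO was log2 -1.20 ± 0.43 (adjusted p = 0.101). The interaction passed (log2 -2.92 ± 0.61, adjusted p = 0.0144), so the IL-4 effect on Tgm2 differed between genotypes. These levels rest on 16 to 196 reads per library.

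The Tgm2 call after IL-4 was lost without WT IL-4 replicate 1 (log2 -2.13, adjusted p = 0.0774). The rise in WT was lost without WT basal replicate 1 (adjusted p = 0.126) or replicate 2 (0.146), and without WT IL-4 replicate 1 (0.110), replicate 2 (0.0598) or replicate 3 (0.0519), at log2 1.47 to 1.84. The interaction was lost without KO basal replicate 1 (adjusted p = 0.0612), WT basal replicate 2 (0.0501) or WT IL-4 replicate 1 (0.0547). With only the IL-4 libraries in the fit, so that the spread is estimated from those libraries alone, the genotype difference after IL-4 was log2 -2.38 with adjusted p = 0.0150.

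Counted over the 6 genes open to a test, 1 passed between genotypes after IL-4 (Tgm2, lower in KO), where 0.827% of all genes passed, 0.353% higher and 0.474% lower. Between basal genotypes 0 of 6 passed by edgeR or by DESeq2, beside 4.14% of all genes by edgeR (2.61% higher and 1.53% lower) and 841 genes in DESeq2. In the same comparison 0 of 6 had an unadjusted p under 0.05 in edgeR, beside 17.7% of all genes. With IL-4 in WT, 2 of 6 rose (Vcan and Tgm2), beside 6.06% of all genes that passed (3.26% higher and 2.80% lower). With IL-4 in KO, Vcan rose and Ecm1 fell, beside 7.60% of all genes (4.09% higher and 3.51% lower). The interaction passed for 1 of 6 (Tgm2, lower), beside 2.81% of all genes (1.02% higher and 1.78% lower). The median log2 difference of the 6 was -0.38 between genotypes after IL-4, 0.31 between basal genotypes, 0.68 with IL-4 in WT and 0.22 with IL-4 in KO and -0.72 for the interaction, and all genes tested had medians between -0.02 and 0.02.

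**Figure D3:**
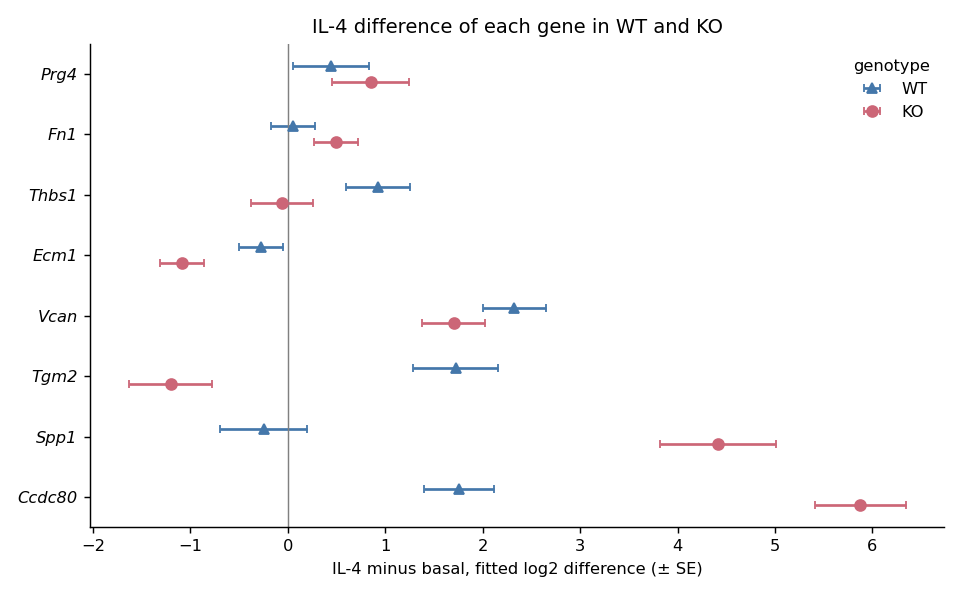
Fitted log2 difference, IL-4 minus basal, for each gene in WT (blue triangles) and KO (red circles), with bars of 1 standard error. Vcan lies right of 0 in both genotypes (2.32 and 1.70), Tgm2 lies on opposite sides (1.72 and -1.20), and Spp1 and Ccdc80 lie far right in KO (4.41 and 5.87).

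Spp1 (ENSMUSG00000029304, chr5:104435118-104441050, plus strand) encodes osteopontin, a secreted phosphoprotein that acts as a cytokine and adhesion ligand for integrins and CD44. It stood at 65.2 and 19.6 CPM in WT basal, 2.16 and 1.16 CPM in KO basal, 32.9, 22.1 and 52.2 CPM in WT IL-4, and 27.5, 38.9 and 39.0 CPM in KO IL-4 libraries. The KO basal libraries, with 20 and 13 reads of Spp1, were the lowest, and the other 3 groups overlapped one another. In the terms of the fit Spp1 was 25.7-fold lower in KO than WT basal libraries (log2 -4.68 ± 0.62) and differed by log2 -0.02 ± 0.40 after IL-4. The IL-4 difference was log2 4.41 ± 0.60 in KO, a 21.3-fold higher level, and -0.25 ± 0.45 in WT, which gives an interaction of 4.66 ± 0.73.

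The WT basal libraries differed by over 3-fold in Spp1. Without WT basal replicate 1 the basal genotype difference became log2 -3.56, the interaction 3.53, and the IL-4 difference in WT changed sign to 0.87. Without replicate 2 these values were -5.31, 5.28 and -0.87. The comparisons of KO basal with WT basal and with KO IL-4 share the KO basal libraries, so both hold the same low values. The part of B cell and mast cell RNA in the low Spp1 level was not tested.

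Ccdc80 (ENSMUSG00000022665, chr16:45093402-45128077, plus strand) encodes a secreted protein that associates with the matrix and has been studied in fat tissue. It stood at 10.1 and 6.94 CPM in WT basal, 2.05 and 0.626 CPM in KO basal, 26.9, 27.0 and 32.4 CPM in WT IL-4, and 57.9, 72.3 and 101 CPM in KO IL-4 libraries. The 4 groups did not overlap, from KO basal as the lowest through WT basal and WT IL-4 to KO IL-4. KO was 6.49-fold lower than WT under basal conditions (log2 -2.70 ± 0.46) and 2.68-fold higher after IL-4 (log2 1.42 ± 0.30). IL-4 went with a 58.7-fold higher level in KO (log2 5.87 ± 0.47) and a 3.38-fold higher level in WT (log2 1.76 ± 0.36), an interaction of log2 4.12 ± 0.55.

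The KO basal value of Ccdc80 rested on 19 and 7 reads, which limits these folds. Without KO basal replicate 1 the basal genotype difference was log2 -3.74, the IL-4 difference in KO 6.92 and the interaction 5.16. Without KO basal replicate 2 they were -2.05, 5.22 and 3.47. Both Ccdc80 and Spp1 were thus lowest in KO basal libraries, but after IL-4 Ccdc80 was higher in KO than in WT while Spp1 overlapped between genotypes. Over the 10 libraries their log2 CPM had a Pearson r of 0.84, as a description, since the libraries share 4 groups.

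**Figure D4:**
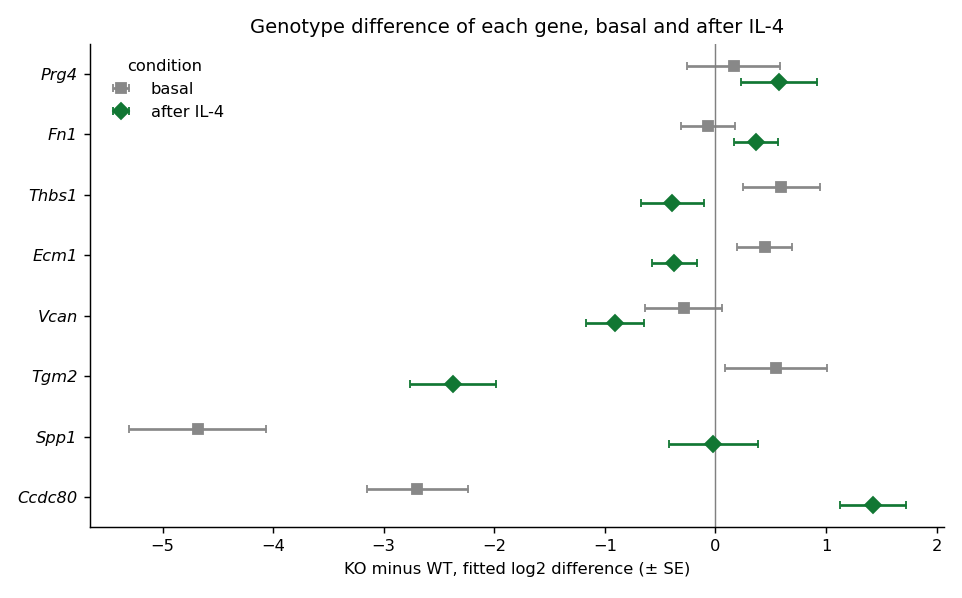
Fitted log2 difference, KO minus WT, for each gene under basal conditions (grey squares) and after IL-4 (green diamonds), with bars of 1 standard error. Spp1 moves from -4.68 to -0.02 and Ccdc80 from -2.70 to 1.42, while Tgm2 moves from 0.55 to -2.37.

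The genes, of those reaching 10 CPM on average in at least 1 group, most like each member were taken by Pearson r of log2 CPM over the 10 libraries, as a description with no test. Mcub, the gene of a subunit of the mitochondrial calcium channel, was nearest to both Ccdc80 (r = 0.96) and Spp1 (r = 0.91). Lars2, a mitochondrial leucyl-tRNA synthetase gene (r = 0.96), and Diaph3, a formin gene (r = 0.95), were next for Ccdc80. For Vcan they were Tcf23 (r = 0.98), C1rl (r = 0.97) and Chil3, the chitinase-like gene that IL-4 induces (r = 0.96). For Ecm1 they were Ttyh3 (r = 0.98), Pmepa1, a TGF-beta target (r = 0.97), and Slc2a1, the glucose transporter GLUT1 (r = 0.97). For Tgm2 they were Ppp1cc, Btf3 and Ptges3 (r = 0.94, 0.93 and 0.93). Fn1 and Thbs1 had as nearest genes Capn2 (r = 0.92) and Trim30d (r = 0.94). Med14, a Mediator subunit gene, was near Prg4 (r = 0.92). Among the members themselves, Ecm1 and Ccdc80 ran most opposite (r = -0.87).

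Other matrix genes were taken from 6 lists. Of all genes, 6.06% passed with IL-4 in WT, 7.60% with IL-4 in KO and 4.14% between basal genotypes. The shares were 0.827% between genotypes after IL-4 and 2.81% for the interaction. Collagens were scarce, since 3 of 12 had enough reads to be tested. Col18a1, the gene of collagen XVIII and its endostatin fragment, fell with IL-4 in WT from 17.0 to 1.72 CPM (log2 -3.33 ± 0.55, adjusted p = 0.00251), and its interaction was log2 3.39 ± 0.78 (adjusted p = 0.0275). The fall was lost without WT basal replicate 1 (log2 -2.12, adjusted p = 0.0623), where the interaction came to log2 2.17, and without WT basal replicate 2 they were -3.98 and 4.03. The interaction lost its call in 5 of the 10 leave-one-out fits (adjusted p up to 0.184 without WT basal replicate 1). No other collagen passed in any of the 5 comparisons. The median log2 IL-4 difference of the 3 tested was 2.26 in WT and 0.06 in KO. The WT median is the value of 1 gene that did not pass, and 0 of the 3 were higher by the test.

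Of 36 other matrix glycoproteins and proteoglycans 19 were tested. Those tested had a median log2 IL-4 difference of -0.16 in WT and -0.13 in KO. With IL-4 in WT 2 rose, 1 fell and 16 did not pass, beside 6.06% of all genes that passed. With IL-4 in KO 0 rose, 1 fell and 18 did not pass, beside 7.60% of all genes that passed. Between genotypes 1 was lower in KO after IL-4, 1 was higher under basal conditions and 18 did not pass in either. Of all genes 0.827% and 4.14% passed there. Crispld2, a secreted protein gene that glucocorticoids induce, rose with IL-4 in WT from 3.22 to 34.5 CPM (log2 3.41 ± 0.39, adjusted p = 1.72e-04) and stood at 4.36 CPM in KO basal and 2.34 CPM in KO IL-4 libraries. Its interaction was log2 -4.32 ± 0.53 (adjusted p = 5.93e-04), and both values were larger in size without WT basal replicate 2 (4.05 and -4.96). Nid1, the gene of nidogen 1, a basement membrane linker, was 7.49-fold higher in KO than WT basal libraries (36.1 against 4.80 CPM, log2 2.90 ± 0.39, adjusted p = 4.25e-04) and fell with IL-4 in KO (log2 -1.92 ± 0.32, adjusted p = 0.00186). Its interaction was log2 -3.15 ± 0.49 (adjusted p = 0.00227), and without WT basal replicate 2 the basal difference and the interaction were 3.71 and -3.97. The KO basal libraries in which it was high are those rich in B cell and mast cell RNA, whose part was not tested. Ltbp1, which tethers latent TGF-beta, fell and Emilin1, an elastic fibre gene, rose with IL-4 in WT (log2 -1.07 and 0.83), but lost the call in 3 and 7 of the 10 leave-one-out fits (adjusted p up to 0.397 and 0.258, both without WT basal replicate 2).

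Of 19 cross-linking and processing enzymes 12 were tested, and the calls were 2 rises with IL-4 in WT and none in the other 4 comparisons. With IL-4 in WT 6.06% of all genes passed. Those tested had a median log2 IL-4 difference of 0.26 in WT and -0.02 in KO. F13a1, the gene of the coagulation factor XIII A chain, a transglutaminase like Tgm2, rose from 196 to 514 CPM in WT (log2 1.39 ± 0.22, adjusted p = 0.00221) and stood at 284 and 331 CPM in KO basal and KO IL-4 libraries. Sulf2, a heparan sulfatase gene, rose (log2 1.96 ± 0.49, adjusted p = 0.0262) and lost the call in 3 of the 10 fits (adjusted p up to 0.216 without WT basal replicate 2), and it was log2 2.90 without WT basal replicate 1. The F13a1 interaction did not pass, so its response is not shown to differ between genotypes.

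Of 25 matrix-degrading proteases and inhibitors 17 were tested. The median log2 IL-4 difference of those tested was 0.60 in WT and 0.24 in KO. With IL-4 in WT 2 rose, 2 fell and 13 did not pass, beside 6.06% of all genes that passed. With IL-4 in KO 1 rose, 2 fell and 14 did not pass, beside 7.60% of all genes that passed. Mmp8, neutrophil collagenase, rose with IL-4 in WT from 0.596 to 14.2 CPM (log2 4.56 ± 0.62, adjusted p = 6.36e-04) and was lower in KO after IL-4 (2.45 CPM, log2 -2.53 ± 0.45, adjusted p = 0.0129). The Mmp8 interaction was log2 -4.21 ± 0.80 (adjusted p = 0.00812), lost without KO basal replicate 2 (log2 -3.53, adjusted p = 0.0705). Without WT basal replicate 1 the rise was log2 5.34 and the interaction -4.99, and the genotype call was lost in 3 of the 10 fits (adjusted p up to 0.112 without WT IL-4 replicate 1). Summed neutrophil markers moved with Mmp8 after IL-4. Their 11 genes came to 85.8 to 93.6 CPM in WT and 22.1 to 34.4 CPM in KO libraries, with 1 and 3 at 0. Most of the WT sum was S100a8 (19.6 to 24.2 CPM) and S100a9 (39.2 to 52.6 CPM). Ly6g was at 0 in WT and reached 0.609 CPM in KO libraries. Of the 6 tested 2 were lower in KO after IL-4, 0 were higher and 4 did not pass, beside 0.827% of all genes that passed. The part of neutrophil RNA in the Mmp8 values was not tested. Adam8, a metalloprotease gene, rose with IL-4 in WT (log2 1.87 ± 0.32, adjusted p = 0.00312).

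Adam19 was 8.37-fold higher in KO than WT basal libraries (log2 3.07 ± 0.51, adjusted p = 0.00225), and its interaction was log2 -2.93 ± 0.62 (adjusted p = 0.0167), which was lost without KO basal replicate 1 (adjusted p = 0.0661). These values were 2.45 and -2.33 without WT basal replicate 1, and 4.23 and -4.11 without WT basal replicate 2. Like Nid1 it was highest in the KO basal libraries rich in B cell and mast cell RNA (21.5 CPM, against 2.54 to 8.16 CPM in the other group means), whose part was not tested. Its fall with IL-4 in KO (log2 -1.40, adjusted p = 0.0496) was lost in 8 of the 10 fits (adjusted p up to 0.244 without KO basal replicate 1). Timp2, an inhibitor of matrix metalloproteases with group means of 1612 to 2981 CPM, fell with IL-4 in WT (log2 -0.73 ± 0.18, adjusted p = 0.0265) and in KO (log2 -0.64 ± 0.18, adjusted p = 0.0415), but lost the call in 4 and 7 of the 10 fits (adjusted p up to 0.109 without WT basal replicate 2 and 0.224 without KO basal replicate 1). Serpinb2, an inhibitor of plasminogen activators, was lower in KO basal libraries (log2 -1.31, adjusted p = 0.0403) and lost the call in 7 fits (adjusted p up to 0.228 without KO basal replicate 2). Mmp14 rose with IL-4 in KO (log2 2.54, adjusted p = 0.0262) and lost the call in 3 fits (adjusted p up to 0.202 without KO basal replicate 2).

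Of 22 matrix receptors 20 were tested. Those tested had a median log2 IL-4 difference of 0.32 in WT and 0.16 in KO. With IL-4 in WT 6 rose and 0 fell, beside 6.06% of all genes that passed. With IL-4 in KO 2 rose and 2 fell, beside 7.60% of all genes. Between basal genotypes 3 were higher and 1 lower in KO, beside 4.14% of all genes. After IL-4 0 of 20 passed between genotypes by edgeR, beside 0.827% of all genes. Lyve1, a hyaluronan receptor, rose with IL-4 from 116 to 362 CPM in WT (log2 1.64 ± 0.26, adjusted p = 0.00206). Cd44, the receptor of hyaluronan and osteopontin, rose with IL-4 in WT (410.0 to 717 CPM, log2 0.81 ± 0.20, adjusted p = 0.0276) and was higher in KO than WT basal libraries (741 CPM, log2 0.85 ± 0.22, adjusted p = 0.0383). Its interaction was log2 -1.30 ± 0.28 (adjusted p = 0.0180), and these 3 calls were lost in 4, 6 and 3 of the 10 fits (adjusted p up to 0.242, 0.288 and 0.0893, each without WT basal replicate 2). Cd47, a receptor of thrombospondin 1, was higher in KO basal libraries (log2 0.83, adjusted p = 0.0421), lost in 7 fits (adjusted p up to 0.247 without WT basal replicate 2). B cells also express Cd44 and Cd47, and the part of B cell RNA was not tested.

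Stab1, a scavenger receptor that binds Sparc, fell with IL-4 in KO (log2 -1.33 ± 0.25, adjusted p = 0.00390), and its interaction was log2 -2.08 ± 0.36 (adjusted p = 0.00488). It was also higher in KO than WT basal libraries (log2 1.28 ± 0.28, adjusted p = 0.0167), a call lost in 3 fits (adjusted p up to 0.111 without WT basal replicate 1). Sdc4, a syndecan that assists fibronectin adhesion, fell with IL-4 in KO (log2 -1.52 ± 0.25, adjusted p = 0.00168). Stab1 and Sdc4 stood highest in the KO basal libraries rich in B cell and mast cell RNA, whose part was not tested. Their means there were 40.9 and 56.6 CPM, against 16.3 to 28.4 and 19.8 to 40.2 CPM in the other group means. Hmmr, a hyaluronan receptor that also acts on the mitotic spindle, rose with IL-4 in KO from 0.993 to 36.9 CPM (log2 5.13 ± 0.65, adjusted p = 3.43e-04), a rise of log2 4.29 without KO basal replicate 1 and 8.28 without replicate 2. Its interaction (log2 3.22 ± 0.78, adjusted p = 0.0430) was lost in 8 of the 10 fits (adjusted p up to 0.138 without WT basal replicate 2), and was log2 2.38 without KO basal replicate 1 and 6.37 without replicate 2. Ddr1, a collagen receptor, passed with IL-4 in WT on 1 read in WT basal and 67 reads in WT IL-4 libraries and was lost in 5 fits (adjusted p up to 0.152 without WT basal replicate 1), so no fold is given.

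Of 17 genes of the TGF-beta axis 15 were tested. The median log2 IL-4 difference of those tested was -0.03 in WT and -0.07 in KO. Tgfb2, a TGF-beta ligand gene, fell with IL-4 in WT from 3876 to 1878 CPM (log2 -1.05 ± 0.18, adjusted p = 0.00286), and 14 did not pass. With IL-4 in KO the inhibitory Smad7 fell (log2 -1.46 ± 0.39, adjusted p = 0.0321), lost in 4 of the 10 fits (adjusted p up to 0.147 without KO basal replicate 1). Smad7 stood highest in the KO basal libraries rich in B cell and mast cell RNA, whose part was not tested. Its mean there was 14.1 CPM, against 5.11 to 6.87 CPM in the other group means. None of the 15 passed between genotypes or in the interaction by edgeR. Of all genes 4.14% passed between basal genotypes, 0.827% between genotypes after IL-4 and 2.81% in the interaction.

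Markers of other cells that make matrix were near 0. Of 20 mesothelial and fibroblast markers 19 matched, and these summed to 2.46 to 7.33 CPM per library, with 10 to 12 of the 19 at 0 in every group. Msln, Upk3b, Wt1, Pdpn and Pdgfra were at 0 in all 10 libraries, while Dcn reached 3.30 CPM and Thy1 2.59 CPM. Krt8 stood at 1.25 to 3.14 CPM in KO basal and 0.283 to 0.343 CPM in WT basal libraries. The part of such cells in the levels of the matrix genes was not tested. Platelet markers summed to 420 to 899 CPM, almost all of it Pf4 at 417 to 896 CPM, and Ppbp, Gp9 and Gp1bb were at 0 in all libraries. The macrophage gate list has 8 genes, with none at 0 in any group. They summed to 27413 and 30054 CPM in WT basal and 7024 and 14272 CPM in KO basal libraries. After IL-4 the sums were 10323 to 11446 CPM in WT and 7042 to 8059 CPM in KO libraries. Most of the WT basal sum was Lyz2, the Cre locus (21903 to 23600 CPM, against 2664 to 9675 CPM in KO basal). Between basal genotypes 1 of the 8 was lower in KO (Lyz2), 0 were higher and 7 did not pass, beside 4.14% of all genes that passed. Without overlap, Lyz2, Itgam (2126 to 2235 against 2969 to 4153 CPM), Icam2 (525 to 714 against 833 to 1154 CPM) and Fcgr1, which encodes CD64 (21.7 to 27.7 against 34.0 to 37.5 CPM), were lower in KO basal than WT basal libraries. Adgre1 (773 to 885 against 685 to 709 CPM) and Mertk (356 to 451 against 293 to 299 CPM) were higher there, and Csf1r and Cd68 overlapped. The 14 large peritoneal macrophage markers summed to 9924 and 10567 CPM in KO basal libraries and 8799 to 14670.1 CPM in the other 8. Of these markers F10 (229.5 to 326 CPM) and Garnl3 (109 to 180.2 CPM) were lower in KO basal than in every other group. Against WT basal libraries alone, Gata6 (539 to 566 against 606 to 906 CPM) and Cd9 (160 to 222 against 322 to 445 CPM) were also lower without overlap. So was Rarb (32.9 to 38.8 against 39.3 to 40.6 CPM), and Icam2 as given above. Selp went the other way, at 748 to 811 CPM in KO basal against 578 to 629 CPM in WT basal libraries, as did Adgre1. Between basal genotypes 1 of the 14 was lower in KO by the test, 0 were higher and 13 did not pass, beside 4.14% of all genes.

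**Figure D5:**
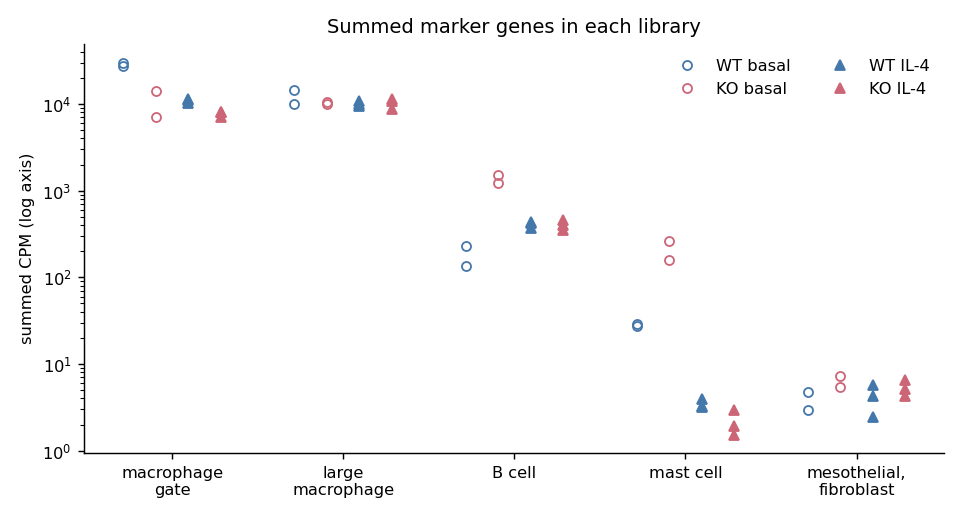
Summed CPM of 5 marker lists (log axis), with 1 point per library, circles for basal and triangles for IL-4, blue for WT and red for KO. B cell and mast cell markers are highest in the KO basal libraries (1214 and 1517 CPM, 158 and 263 CPM), and mesothelial and fibroblast markers stay at 7.33 CPM or less. Lyz2 makes up most of the macrophage gate sum in WT basal libraries.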

How the data were processed

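The authors deposited read counts per gene for 10 libraries. The submitters' processing notes name STAR, HTSeq and mm10; versions, annotation and strand setting are not given in the sources used here. The counts were used as deposited. Identifiers were matched to GENCODE M21 on the same assembly, and 420 of 22165 had no symbol.

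Tests were run in R 4.3.3 with edgeR 4.0.16. After TMM scaling, filterByExpr with a minimum count of 10 and a minimum total of 15 kept 11614 genes for testing. The quasi-likelihood fit was robust, held a mean for each of the 4 groups and had 6 residual degrees of freedom. The 5 contrasts were tested two-sided, with Benjamini-Hochberg adjustment over all genes, and adjusted p here always comes from this edgeR test unless another is named. A gene passed at an adjusted p under 0.05. A standard error (± after log2) is the log2 difference over the square root of F, and ± after a mean is an SD. Levels per kb use merged exons.

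The members and lists were chosen with earlier results of these data known. The targeted gene is not reported here. Named were all members and, per list and contrast, up to 3 passing genes of smallest p. The design foresaw counts over all 8 members, and the 6 other than Spp1 and Ccdc80 are counted here. Replicates differed beyond sampling noise in every pair. The fit was tested on simulated data. Alternatives were DESeq2 1.42.0, DESeq2-type (RLE) factors, library totals, no filter, a replicate block, the compared groups alone and leaving out each library, where a group left with 1 library borrows the spread of the remaining groups. Python 3.11.15 was used for summaries.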

Additional observations from a re-analysis of the deposited data

Results flagged for a closer look

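The IL-4 effect differed between genotypes, by the interaction term, in the following genes. Tgm2 had an interaction of log2 -2.92 (adjusted p = 0.0144 in edgeR), with all WT IL-4 libraries above and all KO IL-4 libraries below their basal groups. Spp1 (log2 4.66) and Ccdc80 (log2 4.12) prompted the choice of genes, so their interactions are a description. Among the listed matrix genes the interaction was positive for Col18a1 (log2 3.39) and Hmmr (log2 3.22). It was negative for Crispld2 (log2 -4.32), Mmp8 (log2 -4.21), Nid1 (log2 -3.15), Adam19 (log2 -2.93), Stab1 (log2 -2.08) and Cd44 (log2 -1.30). Of these, Crispld2, Nid1 and Stab1 kept the call in all 10 fits without 1 library.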

How the results depend on the processing

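For the 6 genes open to a test, 474 values were compared over the 5 comparisons and all alternatives. Of these, 457 kept their side of the threshold, 11 lost and 6 gained a call, and 0 reversed with a call. Values without a call could change sign and still be among the 457. The Fn1 IL-4 difference in WT, for example, was log2 0.05 with all libraries and -0.29 without WT basal replicate 2. Without 1 library, the number of the 6 genes called ranged from 0 to 1 between genotypes after IL-4 (1 with all libraries), 0 to 1 between basal genotypes (0), 1 to 2 with IL-4 in WT (2), 1 to 3 with IL-4 in KO (2) and 0 to 2 for the interaction (1). No other alternative moved these counts by more than 1.5 times. With library totals group means moved by less than 1 SD, except that Tgm2 in WT basal libraries was 3.64 CPM against 3.82 CPM. Leaving out 1 of 2 or 3 libraries can never move their mean by 1 SD, so that comparison says nothing about the means.

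Same-numbered libraries of different groups had correlations of their deviations from the group means between -0.11 and 0.06 over 13 pairs. In a group of 2 libraries the deviations mirror each other, so some of these values repeat. Whether libraries with the same replicate number were handled together was not tested. With the number as a replicate block, 1, 0, 2, 2 and 1 of the 6 genes passed in the order above, 8 of the 37 calls named from the gene lists missed the threshold (Ltbp1, Emilin1, Timp2 in both genotypes, Mmp14, Cd44 and Cd47 between basal genotypes, and Ddr1, at adjusted p = 0.0559 to 0.123), and the count over all genes with IL-4 in KO fell from 883 to 554. Counts over all genes ran from 21 to 129 after IL-4 (96), 208 to 550.0 basal (481), 302 to 764 in WT (704), 327 to 931 in KO (883) and 182 to 397 for the interaction (326) without 1 library. DESeq2 called 385, 841, 1144 and 594 after IL-4, basal, in WT and for the interaction, and no filter 505, 1034, 1209, 1423 and 819 in the order above. With library totals the median of all genes moved to 0.13 between basal genotypes, -0.10 with IL-4 in KO and -0.17 for the interaction. Calls then split into 421 higher and 110 lower (303 and 178 with TMM), 386 and 532 (475 and 408), and 92 and 275 (119 and 207), and in WT into 481 and 256 (379 and 325). Tgm2, Spp1 and Ccdc80 in KO basal libraries rest on few reads, which limits their precision.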
